A study of Mus musculus with 15 samples.

Results

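Chemokines and their receptors were followed in the podocyte fraction of kidneys from young mice, aged mice injected with a control antibody and aged mice injected with an antibody to PD-1. The set holds every protein-coding gene whose symbol starts with Ccl, Cxcl, Ccr or Cxcr and a digit, which gave 52 of the 46078 genes counted, 35 of them ligands and 17 receptors. All mice were male C57BL/6J. Young mice were 4 months old and not injected. Aged mice were 21 months old when they were randomized and received an intraperitoneal injection each week for 8 weeks of either an anti-PD-1 antibody (clone RMP1-14; the group is called aged aPD1ab) or the isotype control (clone 2A3; aged IgG2a), both at 12 mg/kg. The sample titles of the aged aPD1ab mice give 47 days in place of those weeks. Young mice had no antibody, so the control group differed from them in age and in injection together.

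Chemokines are small secreted proteins that draw leukocytes along a concentration gradient by way of receptors coupled to G proteins. CC ligands such as Ccl2 and Ccl8 attract monocytes and other mononuclear cells, CXC ligands with an ELR motif such as Cxcl1 attract neutrophils, and Cxcl9 and Cxcl10 are induced by interferon and attract activated T cells. In the kidney the ligands come from resident macrophages and dendritic cells and also from tubule, mesangial and endothelial cells, whereas most of the receptors are carried by leukocytes.

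The podocyte fraction was sorted from digested cortex with magnetic beads through antibodies to Nephrin, a protein of the podocyte slit diaphragm, so other kidney cells that came through the column were sequenced too. In all, 13 libraries could be used, 5 young, 4 aged IgG2a and 4 aged aPD1ab, with between 19912969 and 32717100 reads counted on genes. Their groups come from the numbers printed beside the points of the study's principal component plot and not from the labels, which list 5 mice per group. All 10 podocyte markers were counted, with a summed level of 886 to 1435 CPM (counts scaled to the same library size) in young, 535 to 729.9 in aged IgG2a and 276 to 874 in aged aPD1ab libraries. Macrophage markers, 10 of 10 counted, summed to 1992 to 3606, 3201 to 9475 and 2406 to 5506 CPM. In a bulk sample fewer cells of a type and less RNA per cell cannot be told apart. On the first principal component of all genes aged IgG2a replicate 1 scored -16.4, within the range of the aged aPD1ab libraries, and the other 3 aged IgG2a libraries scored 71.6 to 84.2. Results are therefore given with all libraries and, where they move, without replicate 1. That choice was made on these same data. Leaving out the IgG2a library that scored among the aPD1ab libraries can itself widen the difference between the aged groups. Genes called lower with aPD1ab against IgG2a went from 0.0 to 13.2% of all genes tested. Calls without replicate 1 are therefore no independent support.

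The members that stood out most had the promoters below, shown because a shared motif would be visible there. Each run is the 250 bases before RefSeq's start of the gene in the direction of transcription, read from RefSeq sequence on GRCm38.p6. Capitals mark letters that match a searched motif on either strand. The motifs were the kappaB consensus bound by NF-kappaB, TGANTCA bound by AP-1 and the TATA box TATAAA.
Ccr3, chr9:124021721-124021970, plus strand: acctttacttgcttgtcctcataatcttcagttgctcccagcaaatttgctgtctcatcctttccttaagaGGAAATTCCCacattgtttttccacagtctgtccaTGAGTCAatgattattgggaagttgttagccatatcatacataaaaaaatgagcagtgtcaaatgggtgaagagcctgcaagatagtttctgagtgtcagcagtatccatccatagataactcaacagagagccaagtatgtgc
Ccl8, chr11:82114935-82115184, plus strand: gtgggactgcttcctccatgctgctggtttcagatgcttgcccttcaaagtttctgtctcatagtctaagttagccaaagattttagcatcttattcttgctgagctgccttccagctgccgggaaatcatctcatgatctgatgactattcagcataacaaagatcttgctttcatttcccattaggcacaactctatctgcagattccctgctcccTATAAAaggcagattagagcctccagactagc
Cxcl13, chr5:95956689-95956938, plus strand: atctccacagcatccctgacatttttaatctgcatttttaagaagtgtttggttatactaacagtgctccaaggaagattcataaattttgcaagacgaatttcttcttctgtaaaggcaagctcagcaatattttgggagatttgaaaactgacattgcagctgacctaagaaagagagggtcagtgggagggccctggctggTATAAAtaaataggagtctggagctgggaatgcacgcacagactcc
Cxcl1, chr5:90890995-90891244, plus strand: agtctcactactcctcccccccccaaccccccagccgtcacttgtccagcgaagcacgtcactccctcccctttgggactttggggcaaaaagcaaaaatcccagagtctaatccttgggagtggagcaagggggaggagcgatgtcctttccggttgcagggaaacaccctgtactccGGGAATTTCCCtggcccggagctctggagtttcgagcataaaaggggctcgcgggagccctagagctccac

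Ccr3 held a kappaB match 179 to 170 bases before its start and an AP-1 match 144 to 138 bases before it. Ccl8 and Cxcl13 each held a TATA box, 32 to 27 and 46 to 41 bases before the start. A pair of overlapping kappaB matches lay 71 to 61 bases before the start of Cxcl1. No motif searched lay in all 4 promoters. A RefSeq promoter was found for 38 of the 52 members. The kappaB consensus lay in 7 of them (18.4%, against 3.9% of 32851 promoters of all genes), namely Ccl20, Ccl9, Ccr3, Cxcl1, Cxcl10, Cxcl2 and Cxcl3. AP-1 letters lay in 5 (13.2% against 6.75%) and the TATA box in 9 (23.7% against 12.4%), while the interferon-stimulated response element lay in 3 (7.89% against 2.98%) and the letters GAGGAAGT bound by PU.1 in 1 (2.63% against 2.44%). A match describes letters and not a site in use.

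In young libraries the level per length, in TPM (reads per exon length, scaled to a fixed sum), was highest for Ccl3 at 548 ± 210.0 (SD, n = 5) and Ccl4 at 536 ± 208, inflammatory ligands that did not differ from each other beyond that spread. Next came the receptor Cxcr4 at 143 ± 21.2 and the transmembrane ligand Cxcl16 at 116 ± 28.4 TPM, also within each other's spread. Ccl12 (77.7 ± 34.2), Ccr2 (71.8 ± 19.5), Ccl2 (71.3 ± 26.2), Ccl6 (66.0 ± 10.6) and Cxcl2 (58.5 ± 19.2 TPM) formed a group whose neighbours could not be ranked. Ccl9, Ccr7, Cxcl10 and Cxcl9 lay between 27.6 and 33.4 TPM on average, with SDs of 5.03 to 14.2. Ccr3 was near the bottom at 0.0579 ± 0.0436 TPM. Of all members, 37 passed the filter on low counts in at least 1 comparison, and the other 15 never exceeded 0.572 CPM in any library. Ccl1, Ccl21b and Cxcr1 had no read in any library, and Ccl11, Ccl19, Ccl20, Ccl21a, Ccl26, Ccl27b, Ccr4, Ccr8, Ccr9, Cxcl15, Cxcl17 and Cxcl5 had few.

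**Figure D1:**
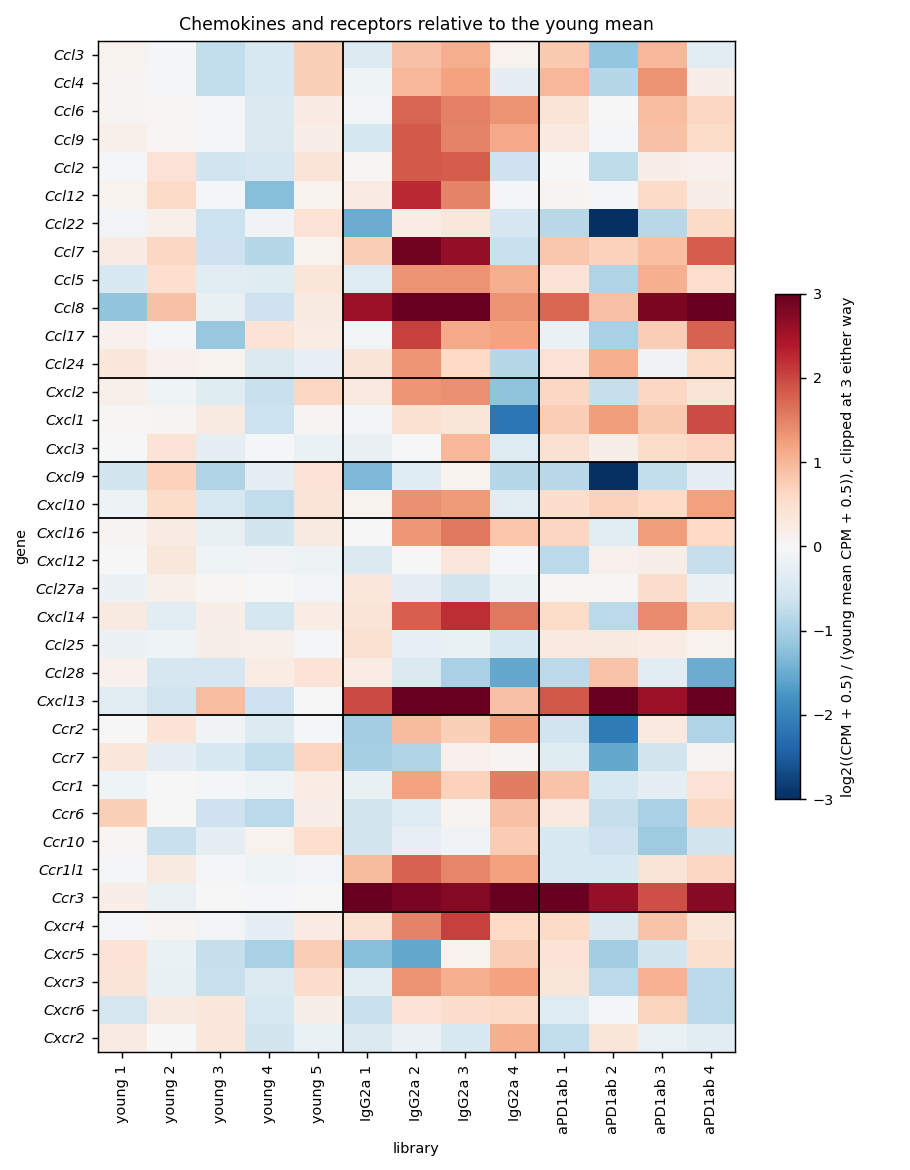
Each row is 1 of 36 members that passed the filter on low counts in at least 1 comparison and each column 1 of the 13 libraries, with the colour giving log2((CPM + 0.5) / (young mean CPM + 0.5)) clipped at 3 either way. Ccr3 and Ccl8 were above the young mean in all 8 aged libraries, whereas Ccl6, Ccl9 and Ccr2 were high in aged IgG2a replicates 2 to 4 and not in replicate 1.

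Aged IgG2a mice were compared with young mice to ask how the chemokine system differs with age. With edgeR's quasi-likelihood test and Benjamini-Hochberg adjustment over 15953 genes, 35 members were tested, 28 had a fitted log2 fold change above 0 and 11 rose at an adjusted p under 0.05, none falling. That was 31.4% of the members tested, where 9.05% of all genes tested rose and 8.38% fell. The median log2 fold change was 0.86 over members and 0.038 over all genes. By role, 4 of 12 inflammatory CC ligands tested rose (Ccl6, Ccl7, Ccl8 and Ccl9), 3 of 7 homeostatic and tissue ligands (Cxcl13, Cxcl14 and Cxcl16), 3 of 8 CC receptors (Ccr1, Ccr1l1 and Ccr3) and 1 of 4 CXC receptors (Cxcr4). Neither of the 2 ELR CXC ligands tested passed, nor did the 2 ligands induced by interferon.

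How many passed turned on single libraries. Without aged IgG2a replicate 1, 18 of 36 members rose (50.0%, against 22.1% of all genes), the same 11 with others added, among them Ccl2, Ccl5, Ccl12, Ccl17, Ccr2 and Cxcr3. Without aged IgG2a replicates 2, 3 or 4 the count was 5, 4 and 7, where 1.78, 1.6 and 2.98% of all genes rose. Without young replicates 1 to 5 it was 5, 7, 5, 5 and 7, where 2.87, 3.84, 2.18, 2.82 and 4.72% of all genes rose, so fewer genes passed throughout the table and not among the members alone. DESeq2 called 15 members higher (12.0% of all genes), voom with sample quality weights 18 (24.3%) and edgeR with scaling to total counts alone 7 (2.07% of all genes higher and 21.2% lower). That last scaling set the median of all genes at -0.38, and under it 24 of the 35 members had a fitted change above 0. Ccr3, Ccl8, Cxcl13 and Ccr1l1 rose in each of 15 alternatives. For Ccr3 and Ccr1l1 this is limited support, since both passed the filter on low counts through the aged IgG2a libraries alone. A rise was the only large change that either could show.

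Between the aged groups, which differ in the antibody, edgeR called 0 of 35 members at an adjusted p under 0.05, as it called 0.0% of all genes in either direction. The fitted log2 fold change was below 0 for 28 members, with a median log2 fold change of -0.57 against -0.011 over all genes, and 8 members had an unadjusted p under 0.05, as had 4341 of 15530 genes. All 8 CC receptors tested and 11 of 12 inflammatory CC ligands had a fitted change below 0. With scaling to total counts alone these were 6 and 9, with the median of all genes at 0.24. Without aged IgG2a replicate 1, 4 of 36 members fell (11.1%, against 13.2% of all genes), among them the receptor Ccr2 and the ligands Ccl6 and Ccl9. With all libraries DESeq2 called 1 member lower (5.59% of all genes), and voom with sample quality weights 10 (18.8%). Leaving out any other library left the count at 0.

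Set against young mice, aged aPD1ab mice had 5 of 34 members that rose (14.7%, where 12.4% of 15986 genes rose and 9.97% fell) and none that fell. They were Ccr3, Cxcl13, Ccl8, Cxcl1 and Ccl7, and the median over members was 0.29. Without aged aPD1ab replicate 2 the count was 10 (12.1% of all genes higher), with Ccl6, Ccl9, Cxcl14, Cxcl16 and Cxcr4 added. That was the highest count when each library was left out in turn (4 to 10). Replicate 2 had the lowest score on the first principal component, at -64.9, and was singled out on these same data. Calls without it are therefore no independent support either. With voom and sample quality weights it was 8 (13.5%). The 3 comparisons share libraries in pairs, so their values stand side by side below and are not independent of each other.

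**Figure D2:**
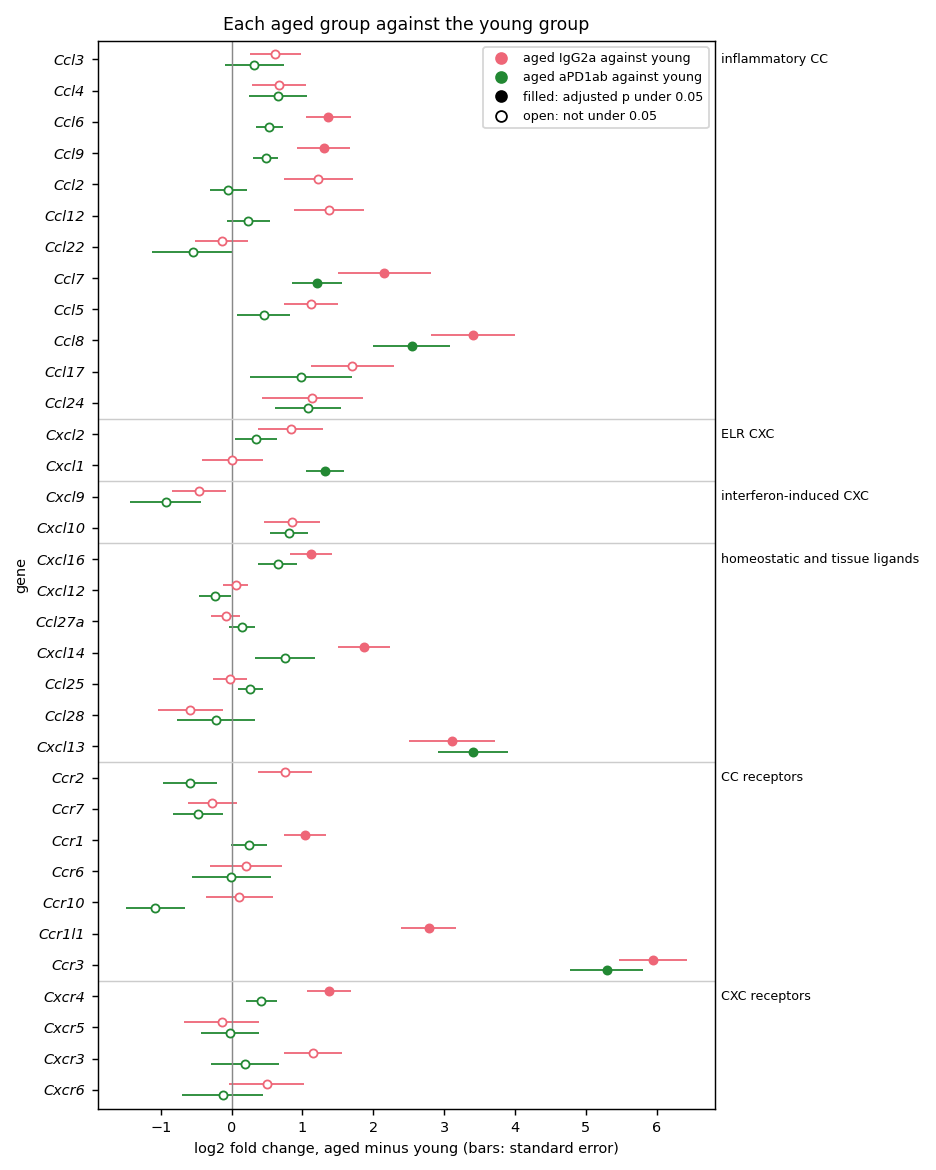
Log2 fold change (x axis) of members tested (y axis, ordered by role) in aged IgG2a (red) and aged aPD1ab (green) against the same young libraries, with bars for the standard error and filled points for an adjusted p under 0.05 from edgeR. Ccr3, Ccl8 and Cxcl13 lay far to the right in both groups, and Cxcl1 at 0.012 and 1.32.

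Among the inflammatory CC ligands, Ccl8, a monocyte-attracting ligand made by macrophages (chromosome 11, 82115185 to 82116799, GRCm38), was at 0.746, 4.70, 1.90, 1.34 and 2.91 CPM in young replicates 1 to 5, at 16.5, 31.6, 40.6 and 6.70 in aged IgG2a replicates 1 to 4 and at 8.80, 4.72, 19.4 and 21.4 in aged aPD1ab replicates 1 to 4. Every aged library was above every young one, although aPD1ab replicate 2 exceeded young replicate 2 only slightly. The log2 fold change against young was 3.41 (standard error 0.59, adjusted p = 0.0104) with IgG2a and 2.54 (standard error 0.55, adjusted p = 0.0108) with aPD1ab, and aPD1ab against IgG2a gave -0.84 (adjusted p = 0.374).

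Ccl7, encoded in the same cluster at 82045712 to 82047525 and a ligand of Ccr2, was at 7.42, 9.64, 3.85, 3.15 and 6.64 CPM in young, 10.5, 49.1, 40.9 and 3.66 in aged IgG2a and 11.2, 10.2, 11.9 and 22.8 in aged aPD1ab libraries. IgG2a replicates 2 and 3 were far above the rest, and replicate 4 lay among the young. Ccl7 rose by 2.16 (standard error 0.65, adjusted p = 0.0472) with IgG2a and by 1.21 (standard error 0.35, adjusted p = 0.0328) with aPD1ab on the log2 scale. The first call held without IgG2a replicates 1 or 4 but not without replicate 2 (adjusted p = 0.149), replicate 3 (0.13) or any of the young replicates 1 to 5 (0.0856, 0.0654, 0.108, 0.105 and 0.0871). The second was lost without aPD1ab replicate 4 (0.101) and without young replicates 1, 3, 4 or 5 (0.0541, 0.0693, 0.064 and 0.0596). Other processings lost the calls too, and of 15 alternatives Ccl7 passed in 6 with IgG2a and in 7 with aPD1ab.

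Ccl2 and Ccl12, the main mouse ligands of Ccr2 and neighbours of Ccl7 on chromosome 11 (82035571 to 82037453 and 82101845 to 82103400), were split in the same way. Ccl2 was at 33.4, 116, 113 and 20.4 CPM in aged IgG2a libraries, against 20.7 to 43.4 in young and 18.7 to 36.7 in aged aPD1ab libraries. Ccl12 was at 19.7, 79.4, 47.3 and 16.1 CPM in IgG2a libraries, against 6.47 to 24.7 and 16.2 to 24.9. IgG2a replicates 2 and 3 stood above every other library for both genes, and replicates 1 and 4 lay in the young range or just under it. With all libraries neither passed against young by edgeR, at 1.23 (adjusted p = 0.103) for Ccl2 and 1.37 (adjusted p = 0.0779) for Ccl12. DESeq2 and voom with sample quality weights called Ccl12 but not Ccl2. By edgeR both passed without IgG2a replicate 1, at 1.45 (adjusted p = 0.0476) and 1.59 (adjusted p = 0.0344). Set against IgG2a, aPD1ab gave -1.24 (adjusted p = 0.175) and -1.10 (adjusted p = 0.174).

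Ccl6 and Ccl9, myeloid ligands of Ccr1 found in rodents, lie side by side on chromosome 11 (83587882 to 83593087 and 83572919 to 83578636). Ccl6 was at 50.04, 49.3, 45.0, 34.6 and 56.3 CPM in young, 44.1, 160.2, 135 and 121 in aged IgG2a and 61.5, 47.0, 90.1 and 72.2 in aged aPD1ab libraries. Ccl9 was at 45.1, 41.7, 38.7, 30.0 and 46.6, 28.0, 146, 115 and 89.1 and 50.04, 39.6, 75.0 and 59.4 CPM in the same order. IgG2a replicates 2 to 4 lay above all other libraries for both genes, and replicate 1 lay within or below the young range. The log2 fold changes of IgG2a against young were 1.36 (standard error 0.32, adjusted p = 0.0236) for Ccl6 and 1.30 (standard error 0.38, adjusted p = 0.0418) for Ccl9. Without IgG2a replicate 1 they were 1.62 (adjusted p = 2.04e-05) and 1.59 (adjusted p = 7.72e-05). For Ccl6 the call was lost without IgG2a replicates 2, 3 or 4 (adjusted p = 0.0712, 0.072 and 0.0577) and without young replicates 1, 3 or 4 (0.0534, 0.0595 and 0.0573). For Ccl9 it was lost without IgG2a replicates 2, 3 or 4 (0.131, 0.112 and 0.0861) and without each of the young libraries (highest 0.0972, without young replicate 4). Counting other processings as well, Ccl6 passed in 9 and Ccl9 in 5 of 15 alternatives.

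Against IgG2a, aPD1ab gave -0.79 (adjusted p = 0.203) for Ccl6 and -0.78 (adjusted p = 0.267) for Ccl9. Without IgG2a replicate 1 both fell, with log2 fold changes of -1.07 (standard error 0.21, adjusted p = 0.0109) and -1.09 (standard error 0.24, adjusted p = 0.0141), and the 3 remaining IgG2a libraries did not overlap with the 4 aPD1ab libraries. The library left out was chosen on these same data. Against young mice aPD1ab gave 0.53 (adjusted p = 0.0638) and 0.48 (adjusted p = 0.0838), which passed for both without aPD1ab replicate 2, at 0.67 (adjusted p = 0.0158) and 0.61 (0.022). That library too was singled out on these same data.

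Ccl3 and Ccl4, the most abundant members and attractants of macrophages and T cells, passed in none of the comparisons by edgeR with all libraries. With voom and sample quality weights Ccl3 passed for IgG2a against young. Ccl3 was at 166 ± 67.4 CPM (SD, n = 5) in young, 242 ± 108 CPM (SD, n = 4) in aged IgG2a and 206 ± 123 CPM (SD, n = 4) in aged aPD1ab libraries. Its range reached from 74.7 to 357 CPM and overlapped in all groups. Ccl4 was at 140.1 ± 57.5 CPM (SD, n = 5), 212 ± 106 CPM (SD, n = 4) and 219 ± 123 CPM (SD, n = 4). The log2 fold changes against young were 0.62 (adjusted p = 0.243) and 0.67 (adjusted p = 0.229) with IgG2a, and 0.32 (adjusted p = 0.613) and 0.65 (adjusted p = 0.271) with aPD1ab. Ccl5, a T cell and macrophage product that binds Ccr1 among others, was at 4.34, 15.6, 15.7 and 13.1 CPM with IgG2a, against 4.10 to 8.54 in young mice. It gave 1.12 (adjusted p = 0.067) with all libraries and 1.39 (adjusted p = 0.00136) without IgG2a replicate 1. Ccl17, a ligand of Ccr4 made by dendritic cells, was low at 0.159 to 1.44 CPM in young, 0.879, 5.48, 2.69 and 2.83 in aged IgG2a and 0.760, 0.244, 1.93 and 4.44 in aged aPD1ab libraries. It passed against young without IgG2a replicate 1, at 2.01 (adjusted p = 0.00677), and with it gave 1.71 (adjusted p = 0.0691). Ccl22, the other Ccr4 ligand, gave -0.14 (adjusted p = 0.815), and Ccl24, an eotaxin, 1.14 (adjusted p = 0.272).

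Among the ELR CXC ligands, Cxcl1, a neutrophil attractant that binds Cxcr2 (chromosome 5, 90891241 to 90893115), was at 13.5, 14.0, 15.98, 8.25 and 14.0 CPM in young, 12.5, 18.2, 17.2 and 2.56 in aged IgG2a and 22.3, 32.3, 23.2 and 52.2 in aged aPD1ab libraries. The 4 aPD1ab libraries were all above the 5 young and the 4 IgG2a libraries, which overlapped with each other, and IgG2a replicate 4 was the lowest of all. Cxcl1 rose by 1.32 (standard error 0.27, adjusted p = 0.00897) against young and passed in each of 15 alternatives. Against IgG2a the log2 fold change was 1.35 (standard error 0.53, adjusted p = 0.144), which passed in none of 14 alternatives (adjusted p from 0.0515 to 0.302). IgG2a against young gave 0.012 (adjusted p = 0.987), and its sign varied with the processing.

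Cxcl2, a close relative and also a Cxcr2 ligand, was more abundant at 48.3 ± 17.3 CPM (SD, n = 5) in young, 81.8 ± 50.6 CPM (SD, n = 4) in aged IgG2a and 60.7 ± 21.2 CPM (SD, n = 4) in aged aPD1ab libraries. It passed in no comparison, with 0.83 (adjusted p = 0.216) for IgG2a and 0.34 (adjusted p = 0.438) for aPD1ab against young. Cxcl3 was at most 0.807 CPM in any library and with edgeR's filter was tested only for aPD1ab against IgG2a without IgG2a replicate 1, where aPD1ab against IgG2a gave 0.29 (adjusted p = 0.822).

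Cxcl9 and Cxcl10, ligands of Cxcr3 induced by interferon, passed in no comparison by edgeR. Cxcl9 was at 32.2 ± 14.9 CPM (SD, n = 5) in young, 22.2 ± 9.58 CPM (SD, n = 4) in aged IgG2a and 16.7 ± 9.58 CPM (SD, n = 4) in aged aPD1ab libraries, and aPD1ab replicate 2 was lowest at 3.46 CPM. Cxcl10 was at 25.0 ± 9.56 CPM (SD, n = 5), 43.1 ± 23.2 CPM (SD, n = 4) and 43.6 ± 10.7 CPM (SD, n = 4). Cxcl10 was 0.82 (adjusted p = 0.0519) with aPD1ab against young by edgeR, which DESeq2 and voom placed under 0.05, while Cxcl9 was -0.93 (adjusted p = 0.2). Exons of Cxcl10 overlap those of Art3 on the other strand, and reads of the pair cannot be told apart unless the counting used strand, which is not given in the sources used here.

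Of the homeostatic and tissue ligands, Cxcl13, the B cell attractant that acts through Cxcr5 (chromosome 5, 95956951 to 95961068), was at 1.12, 0.824, 3.33, 0.805 and 1.49 CPM in young, 7.44, 16.02, 23.0 and 3.18 in aged IgG2a and 6.80, 21.5, 11.4 and 23.8 in aged aPD1ab libraries. All aged libraries but IgG2a replicate 4 were above every young one, and young replicate 3 was just above that library. Cxcl13 rose by 3.11 (standard error 0.60, adjusted p = 0.0145) with IgG2a and 3.42 (standard error 0.49, adjusted p = 0.00374) with aPD1ab, and aPD1ab against IgG2a gave 0.35 (adjusted p = 0.732). It passed against young in each of 15 alternatives in both groups.

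Cxcl14, a ligand made by epithelial and stromal cells, was at 3.40, 2.07, 3.21, 1.74 and 3.28 CPM in young, 3.75, 10.7, 14.6 and 9.26 in aged IgG2a and 4.24, 1.34, 8.22 and 4.63 in aged aPD1ab libraries. IgG2a replicate 1 was only just above the young range, and aPD1ab replicate 2 below it. The rise with IgG2a was 1.87 (standard error 0.37, adjusted p = 0.0151), lost of 15 alternatives only without IgG2a replicate 3 (adjusted p = 0.0511). With aPD1ab it gave 0.75 (adjusted p = 0.221) against young and -1.09 (adjusted p = 0.219) against IgG2a.

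Cxcl16, which is anchored in the membrane of macrophages and dendritic cells and binds Cxcr6, was at 146, 165, 118, 94.7 and 166 CPM in young, 139, 342, 415 and 247 in aged IgG2a and 217, 109, 328 and 209 in aged aPD1ab libraries. Replicate 1 of IgG2a and replicate 2 of aPD1ab lay in the young range and the other aged libraries above it. It rose with IgG2a by 1.12 (standard error 0.30, adjusted p = 0.034), a call that was kept without IgG2a replicate 1 (1.33, adjusted p = 0.000711) and lost without IgG2a replicates 2, 3 or 4 (adjusted p = 0.0989, 0.103 and 0.0678) or any young library (up to 0.0837, without young replicate 3). Counting other processings as well, Cxcl16 passed in 5 of 15 alternatives. Its exons overlap Zmynd15 on the other strand. Cxcl12, the ligand of Cxcr4, was at 19.1 ± 3.02 CPM (SD, n = 5) in young, 19.0 ± 4.22 CPM (SD, n = 4) in aged IgG2a and 16.2 ± 5.87 CPM (SD, n = 4) in aged aPD1ab libraries, with 0.056 (adjusted p = 0.839) and -0.23 (adjusted p = 0.483) against young. Ccl25, Ccl27a and Ccl28 passed in no comparison with all libraries.

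**Figure D3:**
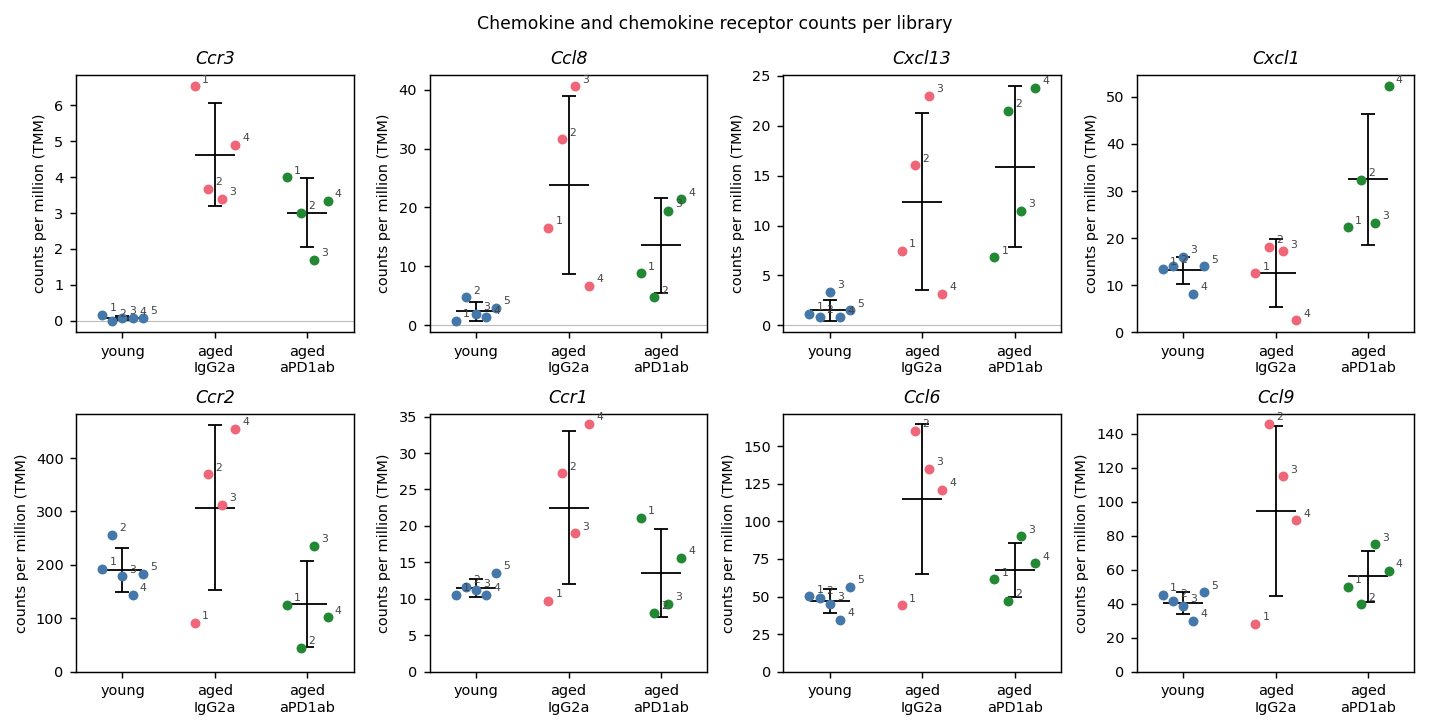
CPM (y axis, from 0) of 4 ligands and receptors that rose in aged aPD1ab against young libraries and of 4 that were high in aged IgG2a replicates 2 to 4, in the 3 groups, with 1 point per library numbered by replicate and bars for mean ± SD. Of the first 4, Ccr3, Ccl8 and Cxcl13 rose with IgG2a as well and Cxcl1 did not. Ccr3 in young libraries was at most 0.166 CPM, and IgG2a replicate 1 lay low for Ccr2, Ccr1, Ccl6 and Ccl9 but highest for Ccr3.

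Of the receptors, Ccr3, the eotaxin receptor known from eosinophils (chromosome 9, 124021972 to 124031689), had the largest log2 fold change of the members tested against young in both aged groups. It was at 0.166, 0, 0.0793, 0.0671 and 0.0746 CPM in young, 6.53, 3.68, 3.39 and 4.90 in aged IgG2a and 4.00, 3.01, 1.70 and 3.34 in aged aPD1ab libraries. In reads this was 4, 0, 2, 2 and 2 in young, 223, 90, 63 and 71 in aged IgG2a and 100, 74, 30 and 119 in aged aPD1ab libraries. All aged libraries were high and all young libraries near 0. Ccr3 was therefore tested against young only because of its aged libraries, and its rank among the members follows in part from that. The log2 fold change was 5.95 (standard error 0.48, adjusted p = 0.000619) with IgG2a and 5.29 (standard error 0.51, adjusted p = 0.0017) with aPD1ab, both resting on 10 young reads in all. aPD1ab against IgG2a gave -0.62 (adjusted p = 0.225). IgG2a replicate 1, whose summed leukocyte markers lay in the young range, had the highest Ccr3 level, and without it the change against young was 5.72 (adjusted p = 1.01e-05).

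The ligands of Ccr3 were low, with Ccl11 at 0 to 0.572 CPM over the 13 libraries, Ccl24 at 0 to 1.76 and Ccl26 with no read in young or IgG2a libraries. Of the 4 eosinophil markers counted, Prg2, a granule protein, was at 5.15 to 6.91 CPM in IgG2a, at 8.00, 0.0814, 6.24 and 6.21 in aPD1ab and at most 0.166 in young libraries. Epx and Ear1, which define eosinophils, were at most 0.117 CPM anywhere, and Siglecf passed in no comparison with all libraries. In aPD1ab replicate 2 Prg2 was as low as in young libraries while Ccr3 was at 3.01 CPM. Plasma cell markers, given below, were low in that library too, at a sum of 18.9 against 274 to 499.9 CPM in the other aPD1ab libraries. The part of any cell type in the Ccr3 result was not tested.

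Ccr1 and Ccr1l1, a receptor of Ccl3, Ccl5, Ccl6 and Ccl9 and a gene of similar sequence beside it, lie near Ccr3 on chromosome 9 (123962124 to 123968692 and 123977243 to 123978408). Ccr1 was at 10.5, 11.7, 11.2, 10.5 and 13.5 CPM in young, 9.70, 27.2, 19.0 and 34.1 in aged IgG2a and 21.1, 8.10, 9.30 and 15.6 in aged aPD1ab libraries. IgG2a replicates 2 to 4 were above the young range and replicate 1 just under it. It rose with IgG2a by 1.04 (standard error 0.30, adjusted p = 0.0419), and by more without replicate 1 (1.27, adjusted p = 0.000163), but not without IgG2a replicates 2, 3 or 4 (adjusted p = 0.122, 0.0854 and 0.12) or any young library (up to 0.0926, without young replicate 4). Counting other processings as well, Ccr1 passed in 4 of 15 alternatives. aPD1ab gave 0.25 (adjusted p = 0.502) against young.

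Ccr1l1 was at 0.166, 0.336, 0.159, 0.134 and 0.149 CPM in young, 0.820, 1.84, 1.40 and 1.11 in aged IgG2a and 0, 0, 0.397 and 0.562 in aged aPD1ab libraries, 11 reads or fewer in each young and 16 to 45 in each IgG2a library. The 4 IgG2a libraries were above all others. It rose with IgG2a by 2.79 (standard error 0.39, adjusted p = 0.00476), and aPD1ab against IgG2a gave -2.39 (standard error 0.92, adjusted p = 0.14). Reads of such neighbours, as of Ccl6 and Ccl9, may be split between near copies, since how the counting treated reads with several matches is not given in the sources used here.

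Ccr2, the receptor that brings monocytes out of the blood toward Ccl2, Ccl7 and Ccl12 (chromosome 9, 124101950 to 124113557), was at 193, 256, 179, 144 and 184 CPM in young, 92.0, 369.5, 312 and 455 in aged IgG2a and 125, 44.4, 236 and 102 in aged aPD1ab libraries. IgG2a replicates 2 to 4 were above all young libraries, whereas replicate 1 lay below the young range, and aPD1ab replicate 2 was the lowest of all 13.

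With all libraries Ccr2 gave 0.76 (adjusted p = 0.178) for IgG2a against young. Without IgG2a replicate 1 it rose by 1.04 (standard error 0.18, adjusted p = 0.000904). For aPD1ab against IgG2a the value was -1.31 (adjusted p = 0.174) with all libraries. It was -1.62 (standard error 0.46, adjusted p = 0.033) without IgG2a replicate 1, when Ccr2 fell and the groups did not overlap. That library was set apart by its score in these same data. aPD1ab against young gave -0.59 (adjusted p = 0.284). Ccr7, which guides dendritic cells and T cells to lymph nodes, was at 23.5 ± 9.79 CPM (SD, n = 5) in young, 18.7 ± 7.82 CPM (SD, n = 4) in aged IgG2a and 16.8 ± 7.11 CPM (SD, n = 4) in aged aPD1ab libraries and passed in no comparison (-0.27, adjusted p = 0.605 and -0.47, adjusted p = 0.361 against young). Ccr6 and Ccr10 stayed at 3.18 CPM or lower.

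**Figure D4:**
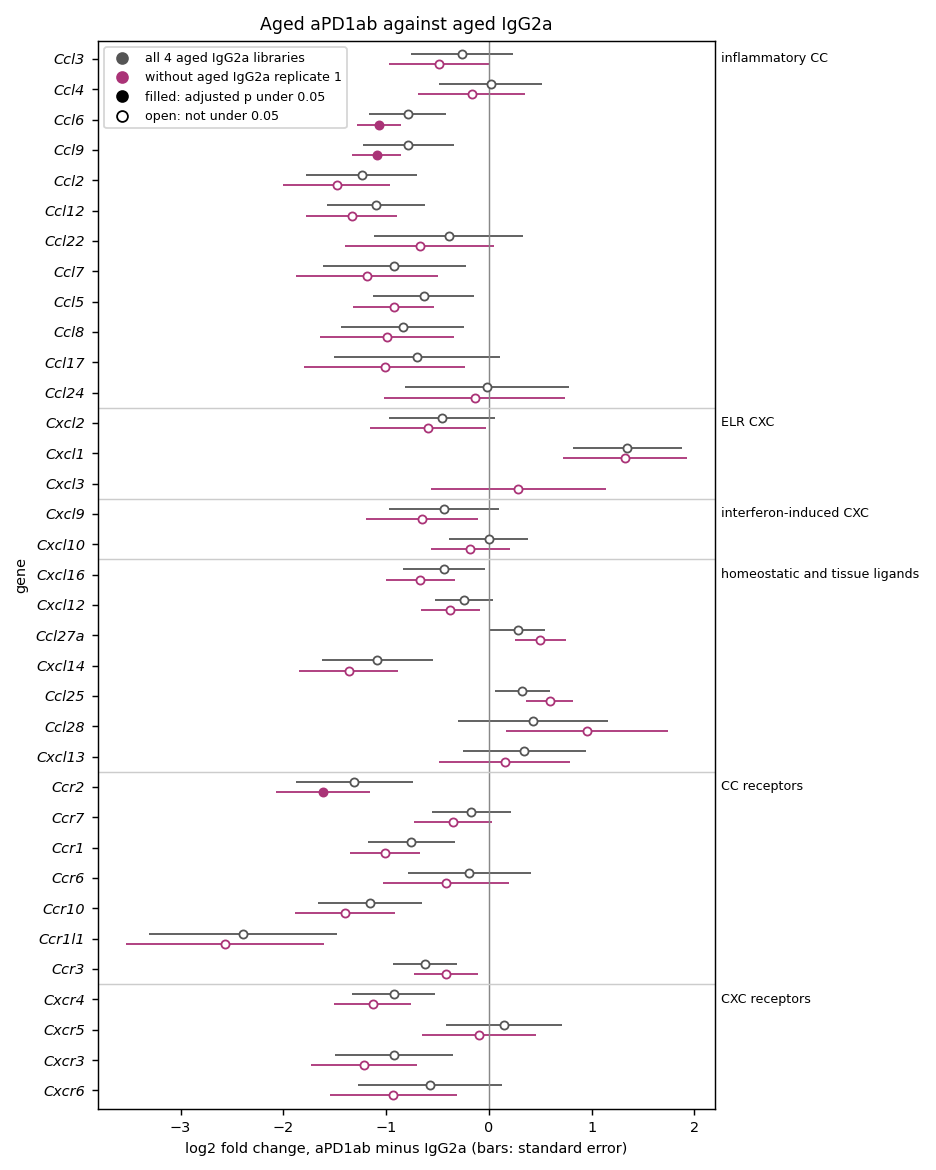
Log2 fold change of aged aPD1ab against aged IgG2a (x axis) for members tested (y axis, ordered by role), with all 4 IgG2a libraries (grey) and without replicate 1 (purple), bars for the standard error and filled points for an adjusted p under 0.05 from edgeR. No grey point is filled, and Ccl6, Ccl9 and Ccr2 are filled without that library.

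Cxcr4, the receptor of Cxcl12 carried by most leukocytes (chromosome 1, 128588199 to 128592293), was at 100.3, 109, 97.2, 83.7 and 122 CPM in young, 141, 289, 429 and 156 in aged IgG2a and 152, 75.7, 184 and 132 in aged aPD1ab libraries. Every IgG2a library was above the young range, and 3 of 4 aPD1ab libraries were. It rose with IgG2a by 1.38 (standard error 0.31, adjusted p = 0.0218). The call was lost without IgG2a replicates 2 or 3 (adjusted p = 0.0633 and 0.0591) and without young replicates 1, 3 or 4 (0.0531, 0.0569 and 0.0549). aPD1ab gave 0.42 (adjusted p = 0.189) against young and -0.93 (adjusted p = 0.176) against IgG2a.

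Cxcr3, the receptor of Cxcl9 and Cxcl10 on T cells and natural killer cells, was at 3.65, 2.23, 1.51, 1.88 and 4.10 CPM in young, 2.05, 7.56, 6.24 and 6.77 in aged IgG2a and 3.60, 1.30, 6.01 and 1.35 in aged aPD1ab libraries. Apart from replicate 1, IgG2a libraries were above the young range, and the aPD1ab libraries lay from below it to above it. Against young IgG2a gave 1.15 (adjusted p = 0.0779) with all libraries and 1.42 (adjusted p = 0.00312) without replicate 1. Cxcr5, the receptor of Cxcl13 on B cells, was at 14.3 ± 7.19 CPM (SD, n = 5) in young, 12.4 ± 9.22 CPM (SD, n = 4) in aged IgG2a and 13.9 ± 6.68 CPM (SD, n = 4) in aged aPD1ab libraries. Its log2 fold changes against young were -0.14 (adjusted p = 0.866) and -0.019 (adjusted p = 0.978), beside those of Cxcl13 given above. Cxcr5 exons overlap Bcl9l on the other strand. Cxcr2, the receptor of Cxcl1 and Cxcl2, was at 1.24 CPM or lower, and Cxcr6, the receptor of Cxcl16, gave 0.50 (adjusted p = 0.523) with IgG2a.

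Markers of other cell types moved with some of these genes and not with others. The pan-leukocyte list, 5 of 5 counted, summed to 1178, 1287, 898, 753 and 1229 CPM in young, 775, 2349, 2115 and 2447 in aged IgG2a and 1229.9, 638, 1424 and 952 in aged aPD1ab libraries. The macrophage list summed to 3201, 9475, 9176 and 7375 CPM in aged IgG2a libraries, with replicate 1 in the young range, and replicate 1 was also the lowest IgG2a library for Ccl6, Ccl9 and Ccr2. Of its 10 genes 9 rose with IgG2a against young, and between the aged groups 0 passed with all libraries and 9 fell without IgG2a replicate 1. Summed over the 17 receptors, levels were 309.8 to 525 CPM in young, 320.1 to 965 in aged IgG2a and 185 to 549.6 in aged aPD1ab libraries. As a percentage of the pan-leukocyte sum they were 37.5 to 43.2%, 34.3 to 45.6% and 29.0 to 38.6%, so the groups overlapped on that scale. As a percentage of the macrophage sum they were 13.8 to 15.6%, 9.62 to 11.4% and 7.68 to 9.98% in the same order, where every young library was above every aged one and the aged groups overlapped. Proximal tubule markers, 7 of 7 counted, ran the other way, at 3239, 596, 957 and 880.1 CPM in aged IgG2a, 4489 to 7185 in young and 3343, 9721, 3136 and 5232 in aged aPD1ab libraries. The part of these cells in the results was not tested.

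Among the other marker lists, plasma cell markers, 4 of 4 counted, summed to 15.3 to 48.7 CPM in young, 294 to 781 in aged IgG2a and 18.9 to 499.9 in aged aPD1ab libraries. They did not track Cxcl13 in every library. In aPD1ab replicate 2 they summed to 18.9 CPM with Cxcl13 at 21.5, and in IgG2a replicate 4 to 781 with Cxcl13 at 3.18. B cell markers, the cells that carry Cxcr5, summed to 56.3 to 173, 53.2 to 281 and 42.2 to 159 CPM, and 0 of 5 passed in any comparison with all libraries. T cell markers summed to 13.5 to 26.4, 21.3 to 63.8 and 19.85 to 35.3. Neutrophil markers, whose cells carry Cxcr2, summed to at most 9.19 CPM in any library, and natural killer cell markers to 6.63. Dendritic cell markers summed to 189.9 to 309 CPM in young, 122 to 412 in aged IgG2a and 72.9 to 213 in aged aPD1ab libraries. Itgax had the highest level of the 7 in most libraries, at 64.0 to 293 CPM in aged IgG2a. With IgG2a against young 4 of the 7 had a fitted change below 0, and 0 rose and 1 fell. With aPD1ab against young all 7 were below 0 and 2 fell. Of 7 endothelial markers 6 fell with IgG2a against young. Of 8 mesangial and fibroblast markers 1 rose and 2 fell, and of 6 markers of the loop and distal tubule 1 rose. The part of these lists in the chemokine results was not tested either.

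**Figure D5:**
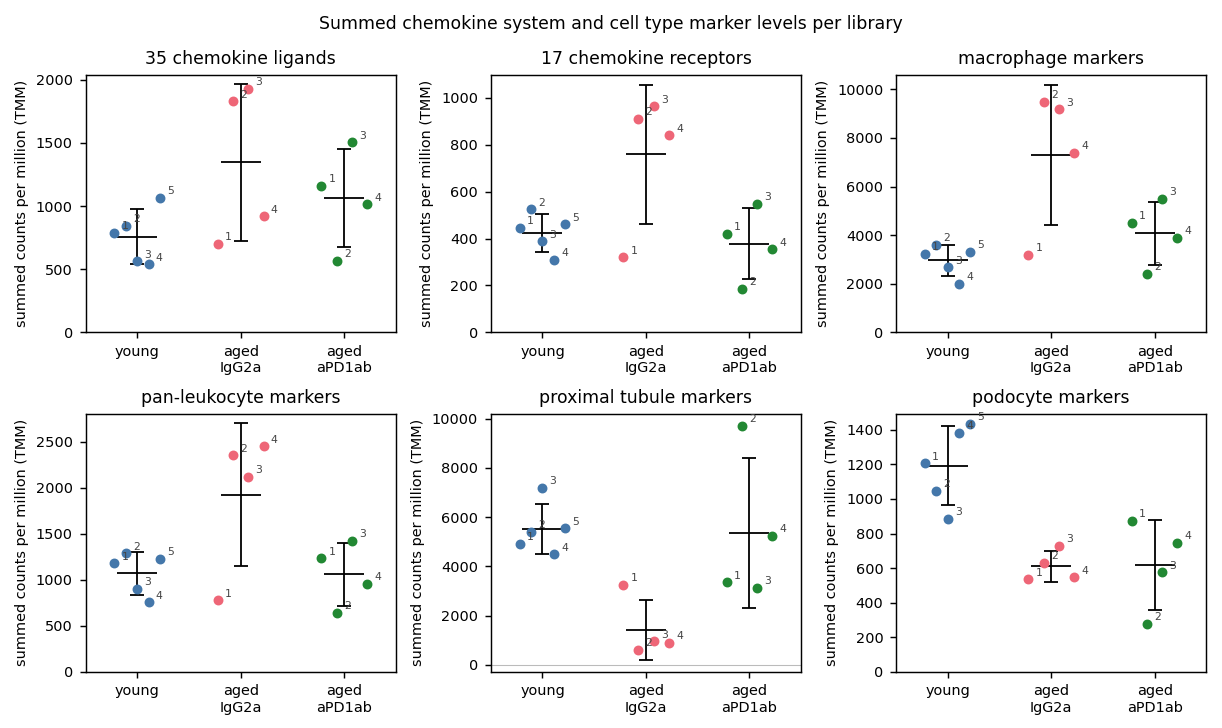
Summed CPM (y axis, from 0) of the 35 ligands, the 17 receptors and 4 lists of cell type markers in the 3 groups, with 1 point per library numbered by replicate and bars for mean ± SD. Aged IgG2a replicate 1 lay apart from replicates 2 to 4 for receptors, macrophage, pan-leukocyte and proximal tubule markers, and with them for podocyte markers.

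Genes that act beside the members were counted from lists. Of 11 further ligands, receptors and scavenging receptors 9 were tested for IgG2a against young, and 2 rose and 1 fell. Pf4, a CXC ligand of platelets and macrophages, rose by 1.998 (adjusted p = 0.0103) and by 1.24 with aPD1ab (adjusted p = 0.00436). Cx3cr1, the fractalkine receptor of kidney macrophages, rose by 1.14 with IgG2a (adjusted p = 0.0418), while its ligand Cx3cl1 gave -0.14 (adjusted p = 0.692). Ackr3, which scavenges Cxcl12, had a log2 fold change of -1.06 (adjusted p = 0.0284) and so fell. Of 43 signalling genes downstream of the receptors, 13 rose and 0 fell with IgG2a, 0 passed between the aged groups, and 1 rose and 4 fell with aPD1ab against young. Without IgG2a replicate 1 these were 35 and 2 with IgG2a, and 1 higher and 27 lower with aPD1ab against IgG2a.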

How the data were processed

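RNA of the MACS-sorted podocyte fraction of mouse kidney cortex was sequenced per mouse. Per the labels and the submitters' processing notes, the authors aligned reads with HISAT2, counted them per gene with featureCounts on mm10/GRCm38 and deposited raw counts; versions, annotation, strand setting and the treatment of reads with several matches are not given in the sources used here. The labels name no batch. Ensembl IDs were joined to GENCODE M21 for symbols, positions and exon lengths. Of the columns of counts, 13 were used and 2 whose group is not known were not used. Replicate numbers follow the order of the columns and pair no libraries.

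Counts were tested with edgeR 4.0.16 in R 4.3.3 (TMM, filterByExpr, robust quasi-likelihood test, Benjamini-Hochberg adjustment over all genes tested) on each pair of groups, and a gene was called at an adjusted p under 0.05. Standard errors are the log2 fold change divided by the square root of F. CPM are scaled by TMM over the 13 libraries, and TPM serve only to compare genes. Each library is 1 mouse, so p-values measure the spread between mice. A level of 0 counts allows up to 3 counts by counting error alone.

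Alternatives were DESeq2 1.42.0, RLE normalization, 1 fit of all 3 groups, no filter, voom with sample quality weights (limma 3.58.1), a call rule of more than 2-fold, each library left out in turn and, chosen after seeing the data, scaling to total counts only. The edgeR step was checked on simulated data. Genes named with values were the members called in any comparison with all libraries or without aged IgG2a replicate 1, the 3 members of highest mean TPM in each role group, and called genes of the lists of other chemokine and signalling genes; further members are named only to account for them, and marker genes where a result turned on them. Members and lists were chosen with earlier results of these data known. The values of 1 member are not reported here, although it is part of the counts and sums.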

Additional observations from a re-analysis of the deposited data

Results flagged for a closer look

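Single libraries lay far from the rest of their group in 3 of the 81 combinations of a named gene and a group that were examined with Dixon's criterion, which chance alone gives in about 1 of 20. Ccl7 in aged aPD1ab replicate 4 was at 22.8 CPM, where the next library had 11.9 CPM, and without that replicate Ccl7 no longer passed against young mice. Cxcl13 in young replicate 3 was at 3.33 CPM, where the next young library had 1.49 CPM, and Cxcl13 passed in both aged groups without it. Ccr1l1 in young replicate 2 was at 0.336 CPM, where the next young library had 0.166 CPM, and it still passed with IgG2a when that library was left out.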

How the results depend on the processing

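Of the 11 members that rose with aged IgG2a against young mice, scaling to total counts only left 7 and voom with sample quality weights gave 18, and leaving out each library in turn gave 4 to 18. Between the aged groups the count of 0 became 1 with DESeq2, 10 with voom and 0 to 4 when libraries were left out. For aged aPD1ab against young the count of 5 became 8 with voom and 4 to 10 when libraries were left out. All other alternatives kept these counts within 1.5 times. Cxcl1 in aged IgG2a against young, at 0.012 with all libraries, changed sign to -0.053 in 1 fit of all 3 groups, -0.011 with DESeq2, -0.021 without a filter, -0.36 with scaling to total counts only and -0.071 with voom, and ranged from -0.23 to 0.33 when libraries were left out. The causes of these changes were not tested. No paired analysis was run, since the groups were different mice and the design holds no pairs between them. With 4 or 5 mice per group and 19912969 to 32717100 reads per library, genes at a few reads, such as Ccr1l1 and the 15 members never tested, were limited by depth, and the groups rest on numbers printed beside plotted points and not on the labels.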
